A study of Rattus norvegicus with 6 samples.

Results

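Gulp1 and 9 other genes of apoptotic cell clearance were followed in 6 mammary tumors of F344 rats, 3 from older and 3 from younger animals. The set holds the engulfment adaptor Gulp1, the TAM receptors Mertk, Axl and Tyro3, the bridging ligands Gas6, Pros1 and Mfge8, the apoptotic cell receptors Stab1 and Lrp1, and the engulfment regulator Elmo1. They were found by gene symbol, and all 10 were present once each among the 30562 rows of the read count table. The set was put together with older against younger values of these same tumors known, so the differences between age groups are given for these 10 genes as a description, without p-values.

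All rats were F344, an inbred strain, carried a subcutaneous 50 mg pellet of MPA (medroxyprogesterone acetate, a progestin, released over 90 days) and received a single gavage of DMBA, a carcinogen, at 65 mg per kg. The older rats came from colonies of the National Institute on Aging at 19 to 21 months of age and gave tumors 102, 107 and 116. The younger rats were virgin animals bought from Envigo at 6 to 8 weeks of age and gave tumors 157, 158 and 167. Age and supplier thus cannot be told apart, and whether the older rats were virgin was not given. Each tumor was a single library of bulk RNA, and no tumor of an untreated rat was compared. The younger tumors were all those that formed in the young cohort, whereas the older tumors were those with enough tissue.

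Dying cells expose phosphatidylserine on their surface, and phagocytes read this lipid either directly, through receptors such as stabilins, or through bridging proteins. GAS6 and protein S (the product of Pros1) bridge to the TAM receptor tyrosine kinases, and MFG-E8 bridges to integrins. The adaptor GULP1, a relative of the worm engulfment protein CED-6, binds tails of receptors such as LRP1 through its PTB domain, and ELMO1 acts with DOCK proteins to activate the GTPase RAC. In the mammary gland, clearance of dying epithelial cells is best known from involution after lactation.

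The smallest library held 3508571 counts and the largest 6525830. Levels are given as CPM, counts scaled to library size, and a floor of 3 counts equals 0.46 to 0.855 CPM of the library total depending on the tumor, for counting error only. The 10 genes had between 9 and 6511 counts in a tumor and all passed the filter on low counts. Tumor 102 stood somewhat apart, since its log2 CPM correlated with the other tumors at a mean of 0.83 across 14060 genes, against 0.869 to 0.9 for the other 5 tumors. The labelled tissue was borne out by luminal epithelial markers, which summed to between 1150 and 1779 CPM in every tumor, with Krt19 not analysed here. As these are bulk samples, fewer cells of a type and less RNA per cell cannot be told apart.

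The promoters of the 3 genes whose age groups did not overlap under either scaling of the libraries are shown to place their sequence beside their levels. They are the 250 bases before the RefSeq start on build GRCr8, whereas reads had been assigned on mRatBN7.2, and letters in capitals mark matches to any of 7 short motifs searched on both strands.
Gulp1 (chr9:54114653-54114902, plus strand): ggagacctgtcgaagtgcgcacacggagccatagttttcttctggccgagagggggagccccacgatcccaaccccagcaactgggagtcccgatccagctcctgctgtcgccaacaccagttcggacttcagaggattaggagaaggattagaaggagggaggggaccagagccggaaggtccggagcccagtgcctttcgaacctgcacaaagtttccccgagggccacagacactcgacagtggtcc
Elmo1 (chr17:49518160-49518409, minus strand): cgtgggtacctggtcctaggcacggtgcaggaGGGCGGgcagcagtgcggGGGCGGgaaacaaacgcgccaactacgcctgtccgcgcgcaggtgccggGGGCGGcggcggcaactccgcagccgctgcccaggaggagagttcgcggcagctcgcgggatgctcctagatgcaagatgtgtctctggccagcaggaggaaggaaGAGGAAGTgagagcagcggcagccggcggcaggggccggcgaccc
Tyro3 (chr3:127231653-127231902, plus strand): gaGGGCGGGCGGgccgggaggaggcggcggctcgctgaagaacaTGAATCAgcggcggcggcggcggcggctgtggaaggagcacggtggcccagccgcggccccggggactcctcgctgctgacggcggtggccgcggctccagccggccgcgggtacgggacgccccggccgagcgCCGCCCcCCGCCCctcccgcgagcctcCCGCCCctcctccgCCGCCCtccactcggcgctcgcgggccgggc

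The motifs included the GC box GGGCGG, the TATA box TATAAA, the CCAAT box CCAAT and the E-box CACGTG. The others were the AP-1-like pattern TGANTCA (N is any base), the nuclear receptor half-site AGGTCA and the PU.1 core GAGGAAGT. The Gulp1 window held 0 matches to these letters. The Elmo1 window held 3 GC boxes and 1 PU.1 core, which lay 45 to 38 bases before the start. PU.1 is a transcription factor of myeloid and B cells. Among 33469 promoters of the same length, 2.04% held the PU.1 core and 30.5% the GC box. The Tyro3 window held 6 GC boxes, of which the first 2 overlap, and 1 match to TGANTCA. This match reads TGAATCA, with A at the open base, and the pattern was found in 6.34% of promoters. Windows of the other 7 genes held from 0 GC boxes in Stab1 to 3 in Gas6, Pros1 and Mfge8, and Gas6 also held 1 nuclear receptor half-site. These matches are letters in a window and not measured binding.

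Gulp1 was higher in every tumor from an older rat than in any tumor from a younger one. It had 49.15 CPM in tumor 102, 59.0 CPM in tumor 107 and 34.8 CPM in tumor 116, against 5.50 CPM in tumor 157, 6.86 CPM in tumor 158 and 8.31 CPM in tumor 167. The lowest older tumor thus lay well above the highest younger one, and the younger values rest on 32 to 39 counts each. The means were 47.7 ± 12.2 CPM (SD, n = 3) in older and 6.89 ± 1.41 CPM (SD, n = 3) in younger tumors, 6.92 times higher in older tumors and a log2 fold change of 2.79 (standard error 0.33, edgeR). With each tumor left out in turn the fold change stayed between 2.60 and 2.97.

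**Figure D1:**
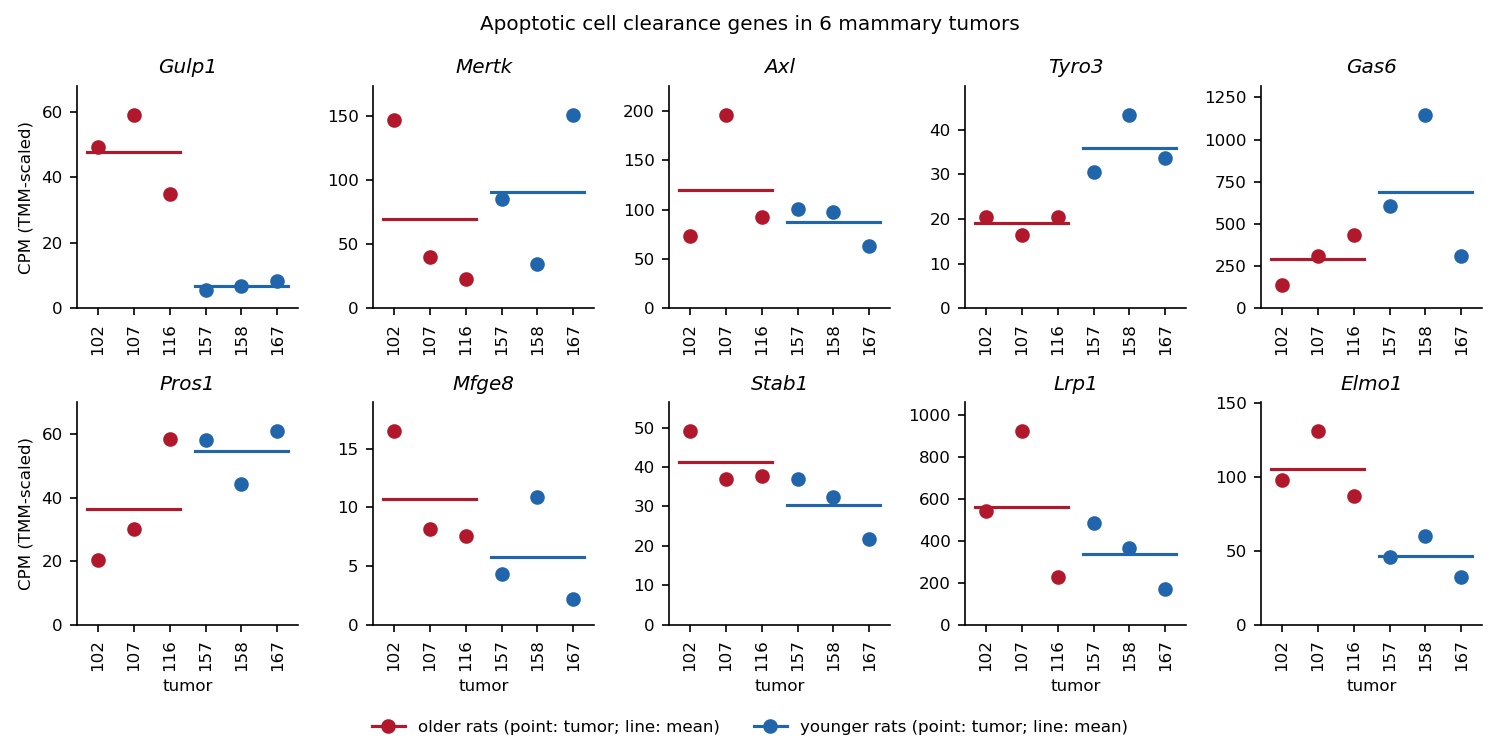
Level of each of the 10 genes in each tumor, as CPM on TMM-scaled library sizes (vertical axes start at 0 and differ between genes); points are single tumors and lines are group means of 3 tumors. Gulp1 and Elmo1 lay higher and Tyro3 lower in all older tumors, while Mertk reached its highest levels in tumors 102 and 167, which belong to different age groups.

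Elmo1, which couples engulfment receptors to RAC activation, had the same order of age groups. Its level was 98.3 CPM in tumor 102, 131 CPM in tumor 107 and 86.9 CPM in tumor 116, and 45.9, 60.3 and 32.3 CPM in tumors 157, 158 and 167. Every older tumor lay above every younger one. The log2 fold change was 1.19 (standard error 0.30, edgeR) and ranged from 0.99 to 1.43 with 1 tumor left out. Elmo2, a relative found in many tissues, had overlapping groups (96.7, 103 and 67.6 CPM in older tumors 102, 107 and 116 against 99.0, 85.0 and 53.9 CPM in younger tumors 157, 158 and 167). The ratio of Elmo1 to Elmo2 counts within a library, chosen after the values had been seen, was 1.02 to 1.29 for older rats and 0.464 to 0.71 for younger rats.

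The TAM receptors did not move together. Tyro3 was lower in all older tumors, with 20.45 CPM in tumor 102, 16.5 CPM in tumor 107 and 20.5 CPM in tumor 116 against 30.4, 43.3 and 33.7 CPM in tumors 157, 158 and 167. Its older values sat close together and below every younger value. The log2 fold change was -0.90 (standard error 0.27, edgeR), between -1.01 and -0.74 with 1 tumor left out.

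Mertk, the TAM receptor best known from macrophages, varied more within age groups than between them. It reached 147 CPM in tumor 102 and 151 CPM in tumor 167, was 85.6 CPM in tumor 157, and lay at 39.9, 22.8 and 35 CPM in tumors 107, 116 and 158. The highest and lowest tumor differed by 6.61 times, and the older range took in 2 of the 3 younger tumors. The log2 fold change was -0.38 (standard error 0.75, edgeR). It was -1.53 without tumor 102, 0.04 without tumor 116 and 0.20 without tumor 167, so its sign depended on single tumors.

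Axl, a TAM receptor found on macrophages and mesenchymal cells, was highest in older tumor 107 at 196 CPM, with the other tumors between 63.2 and 100 CPM. Its groups overlapped, and the log2 fold change of 0.47 (standard error 0.40, edgeR) became -0.08 without tumor 107. Which of Mertk and Axl had more counts differed between tumors. Chosen after the values had been seen, the ratio of Mertk to Axl counts was 2.02 in tumor 102 and 2.39 in tumor 167, but 0.204 in tumor 107, 0.247 in tumor 116, 0.358 in tumor 158 and 0.854 in tumor 157. The 2 tumors with more Mertk than Axl counts thus belonged to different age groups.

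Of the bridging ligands, Gas6 had the highest counts and the widest spread. Its level was 141.5 CPM in tumor 102, 308.5 CPM in tumor 107 and 436 CPM in tumor 116, and 608, 1145 and 311 CPM in tumors 157, 158 and 167. Younger tumor 167 fell inside the older range, so the groups overlapped. The log2 fold change was -1.22 (standard error 0.57, edgeR) with all tumors and -0.63 without tumor 158. On build GRCr8 the gene Tmem255b overlaps Gas6, and since the strand setting of the counting was not given, reads of overlapping genes may be shared.

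Pros1 was at 20.45 CPM in tumor 102, 30.3 CPM in tumor 107 and 58.5 CPM in tumor 116, against 58.3, 44.5 and 61.0 CPM in tumors 157, 158 and 167. The older tumors 102 and 107 were the lowest of the 6, and tumor 116 lay among the younger ones. The log2 fold change was -0.58 (standard error 0.40, edgeR), with -0.30 without tumor 102 and -1.11 without tumor 116. Tumor 102 thus combined the lowest Gas6 and the lowest Pros1 with one of the highest Mertk levels. Within libraries, Gas6 counts exceeded Pros1 counts by 5.09 (tumor 167) to 25.7 times (tumor 158), without correction for gene length.

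Mfge8, which codes for the milk fat globule protein MFG-E8, was sparse, with 9 to 62 counts in a tumor. It had 16.5, 8.12 and 7.55 CPM in older tumors 102, 107 and 116 and 4.30, 10.9 and 2.14 CPM in younger tumors 157, 158 and 167. The groups overlapped through tumor 158, and the log2 fold change of 0.87 (standard error 0.64, edgeR) ranged from 0.41 without tumor 102 to 1.71 without tumor 158.

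Stab1 and Lrp1 code for receptors whose tails GULP1 can bind. Stab1, a scavenger receptor of macrophages and sinusoidal endothelium that recognises phosphatidylserine, was at 49.15, 37.1 and 37.7 CPM in older tumors 102, 107 and 116 and at 37.0, 32.4 and 21.9 CPM in younger tumors 157, 158 and 167. The lowest older and the highest younger tumor were nearly equal, and the groups overlapped when library totals alone were used for scaling. Its log2 fold change was 0.44 (standard error 0.29, edgeR), between 0.25 and 0.60 with 1 tumor left out. On build GRCr8 it overlaps Nt5dc2, and Lrp1 and Elmo1 each overlap a small or long noncoding RNA gene, as does Gulp1.

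Lrp1, a large endocytic receptor, was at 540, 923 and 227 CPM in older tumors 102, 107 and 116 and at 485, 364 and 167 CPM in younger tumors 157, 158 and 167. Tumor 107 was the highest and tumor 116 lay below 2 of the younger tumors. The log2 fold change of 0.73 (standard error 0.57, edgeR) fell to 0.17 without tumor 107.

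Counted together, 6 of the 10 genes lay above 0 on the log2 fold change scale and 4 below 0, against 49.6% above and 50.4% below over all 14060 genes tested. Their median was 0.45, and that of all genes -0.0031. The groups did not overlap for 3 genes higher in older tumors (Gulp1, Elmo1 and Stab1) and 1 gene lower (Tyro3). Over all tested genes, 12.2% had groups that did not overlap, 6.58% higher and 5.58% lower in older tumors. With the quasi-likelihood test of edgeR, 0 of the 10 genes and 0% of all genes reached an adjusted p under 0.05, while 8.55% of all genes had an unadjusted p under 0.05. DESeq2 called 2 of the 10, Gulp1 and Elmo1, both higher in older tumors, against 2.47% of all genes with an adjusted p from that tool, or 1.65% in that direction. Because the genes were chosen with this contrast known, these shares are not read further.

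**Figure D2:**
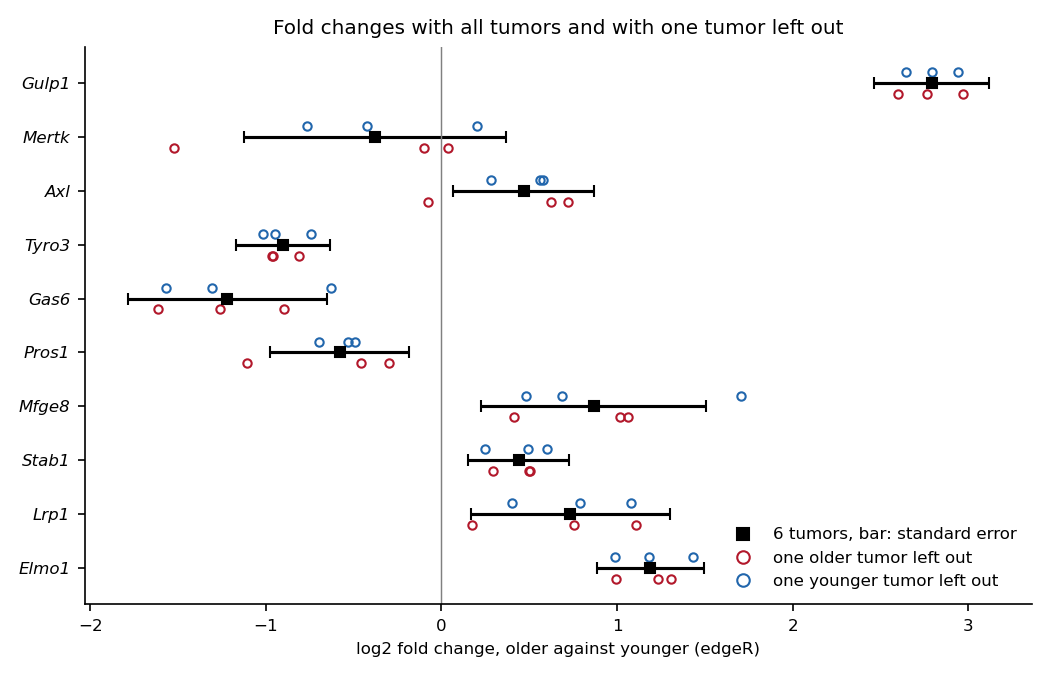
Log2 fold change of each gene between older and younger tumors from edgeR; squares with bars give the estimate and its standard error with 6 tumors, open circles the estimate with a single older (red) or younger (blue) tumor left out. Gulp1 stays between 2.60 and 2.97 and Tyro3 between -1.01 and -0.74, whereas Mertk runs from -1.53 to 0.20 and crosses 0.

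Summed markers of several cell types lay apart between the age groups, some of them through single genes. The 9 macrophage markers summed to 302, 347 and 166 CPM in older tumors 102, 107 and 116 and to 132, 99.2 and 81.0 CPM in younger tumors 157, 158 and 167. All 8 tested macrophage markers had a log2 fold change above 0, 5 of them without overlap between groups, and Marco was at 0 counts in all 6 tumors. The 5 luminal epithelial markers in the table went the other way, with sums of 1150 to 1270 CPM in older and 1513 to 1779 CPM in younger tumors. All 5 had a log2 fold change below 0, but only 2 of them had no overlap between groups. Summed T cell markers ran from 15.5 to 83.2 CPM in older and from 4.40 to 8.42 CPM in younger tumors (5 of 6 markers in the table, Cd3d at 0 in 2 tumors), and Cd8a gave 72.0 of the 83.2 CPM in tumor 107. Summed adipocyte markers ran from 19.4 to 169 CPM in older and from 5.94 to 17.5 CPM in younger tumors, but 0 of the 5 adipocyte genes separated the groups. Fabp4 gave 129 CPM of the sum in tumor 102 and Lep 24.1 CPM of the 32.5 CPM in tumor 107, while Lep was at 0 in 2 tumors. The B and plasma cell sum of 4.39 to 21.1 CPM in older and 1.66 to 4.045 CPM in younger tumors came mostly from Jchain in the older tumors (3.73 to 20.3 against 0.475 to 2.99 CPM). Cd79a, a B cell gene near the floor, was lower in every older tumor (0 to 0.774 against 1.06 to 1.20 CPM), and 4 of the 5 genes were at 0 in at least 1 tumor. Fibroblast, endothelial, myoepithelial and skeletal muscle sums overlapped between age groups (100 to 958 against 97.6 to 783 CPM, 98.5 to 385 against 66.7 to 303 CPM, 421 to 2451 against 1720 to 2571 CPM, and 7.36 to 54.9 against 18.1 to 28.0 CPM). The part of these cell types in the levels of the 10 genes was not tested.

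Set against the macrophage markers of the same tumor, Gulp1 remained apart by age. For each 100 CPM of macrophage markers it had 16.3, 17.0 and 21.0 CPM in tumors 102, 107 and 116 and 4.17, 6.91 and 10.3 CPM in tumors 157, 158 and 167. The older minus younger difference in mean log2 ratio was 1.43. Elmo1 no longer separated the groups on this scale, with 32.6, 37.9 and 52.3 CPM per 100 CPM in older and 34.8, 60.8 and 39.9 CPM per 100 CPM in younger tumors. Stab1 changed sides, at 16.3, 10.7 and 22.7 in older and 28.0, 32.6 and 27.0 CPM per 100 CPM in younger tumors. Axl, Tyro3, Gas6 and Pros1 were also lower in all older tumors on this scale, where a higher marker sum lowers every ratio. Set against the luminal epithelial markers instead, Gulp1, Elmo1 and Stab1 were higher in all older tumors, whereas Tyro3 overlapped (1.35 to 1.78 against 1.71 to 2.86 CPM per 100 CPM). The luminal sums were lower in all older tumors, which raises every older ratio on this scale. These ratios were chosen after the values had been seen, and ratios to the other marker sums were not taken. On a T cell marker scale Gulp1 would not stay apart by age. Its level in older tumor 107 (59.0 CPM) lay below the T cell sum (83.2 CPM). In younger tumors 158 and 167 its level (6.86 and 8.31 CPM) lay above that sum (4.40 and 5.94 CPM).

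**Figure D3:**
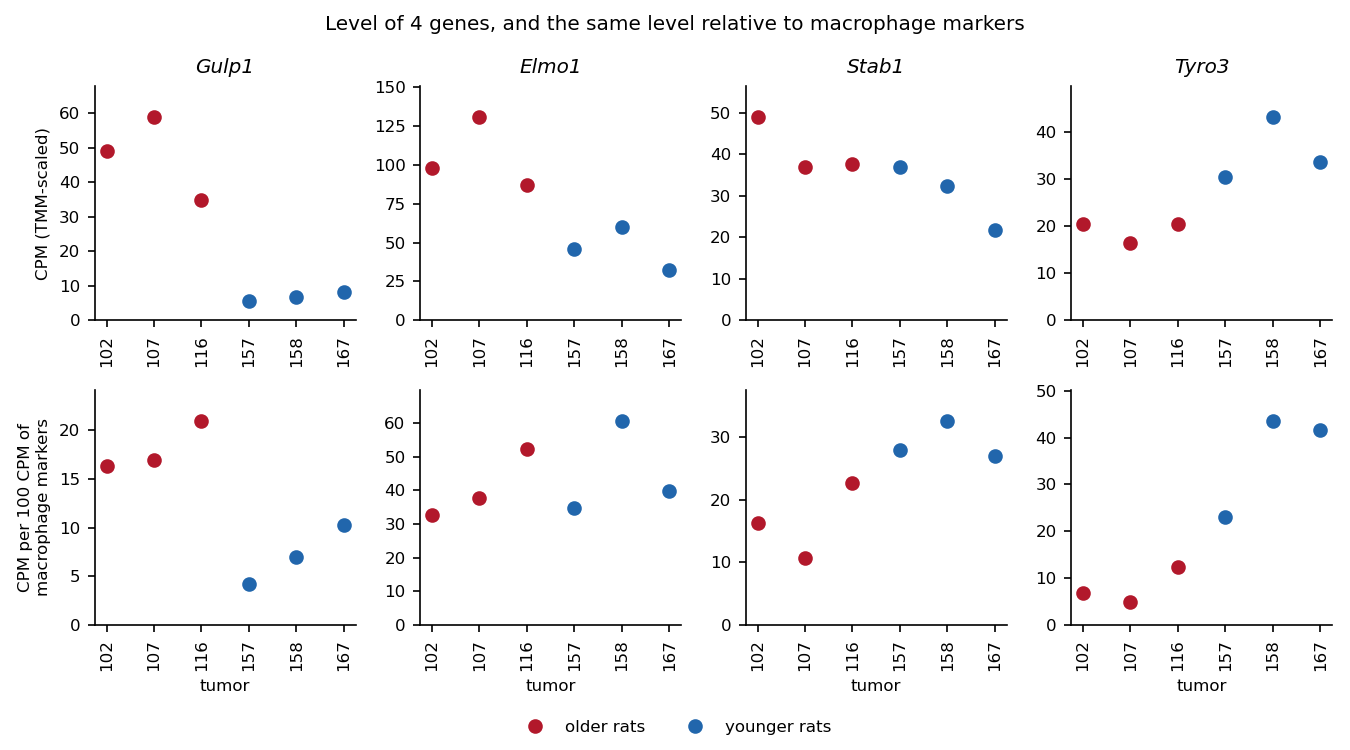
Levels of Gulp1, Elmo1, Stab1 and Tyro3 in each tumor as CPM (upper row) and per 100 CPM of summed macrophage markers of the same tumor (lower row); points are single tumors, red for older and blue for younger rats. In the lower row Gulp1 is still higher in all older tumors (16.3 to 21.0 against 4.17 to 10.3), Elmo1 overlaps and Stab1 lies lower in the older tumors.

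The 5 named genes whose log2 CPM followed Gulp1 most closely over the 6 tumors were Fxyd2, Adgrf1, Cd69, Mtrfr and Prtfdc1, with Pearson correlations from 0.981 to 0.991, given as a description over libraries that also differ in age. Cd69, an activation marker of lymphocytes, had 5.94, 12.5 and 3.87 CPM in older tumors 102, 107 and 116 and 0.17, 0.18 and 0.71 CPM in younger tumors 157, 158 and 167. These younger values rest on 1, 1 and 3 counts, at or below the floor of 3 counts. Cd69 reached the required mean of 1 CPM only through the older tumors, and its split by age follows from ranking genes by likeness to Gulp1. Prtfdc1 had 16.8, 22.6 and 10.3 CPM in older and 3.09, 4.57 and 4.75 CPM in younger tumors. Of 12621 named genes with a mean of at least 1 CPM, 168 reached a correlation of 0.9 with Gulp1 and 121 reached -0.9. With 6 tumors many genes thus follow this order or its reverse.

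Around the 10 genes, 94 further genes of apoptotic cell clearance were listed by role, of which 84 could be tested. These lists were also chosen with earlier results of these data known, so their p-values are given as a description. In edgeR's quasi-likelihood test 0 of the 84 passed an adjusted p of 0.05, and at an unadjusted p under 0.05 there were 6 higher and 3 lower in older tumors, where the test gave 5.28% higher and 3.26% lower over all genes. Their median log2 fold change was 0.0007, with 42 genes above 0 and 42 below. The groups did not overlap for 6 of the 84 genes in the higher and 2 in the lower direction, beside 6.58% and 5.58% over all tested genes, so these counts do not set the lists apart.

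Among other receptors and tethers, 11 of 18 genes could be tested and their median log2 fold change was 0.18, with 6 above and 5 below 0. Single tumors decided this median, which was -0.071 without tumor 107, -0.037 without tumor 167, 0.090 without tumor 157 and 0.72 without tumor 158. Itgav, the integrin subunit that MFG-E8 binds, was at 216 ± 33.8 CPM (SD, n = 3) in older and 311 ± 123.5 CPM (SD, n = 3) in younger tumors, with overlap. Cd14, a lipopolysaccharide co-receptor that also tethers dying cells, was at 149.5 ± 59.4 CPM and 188 ± 193 CPM (SD, n = 3 each). For Olr1, a scavenger receptor, edgeR gave a log2 fold change of 1.99 with a standard error of 0.78 (adjusted p = 0.531), with its highest level of 22.4 CPM in tumor 102 and overlap between groups. The phosphatidylserine receptor Timd4 had 1 to 3 counts and Havcr1 0 to 4 counts in a tumor, so that a difference by age was not detectable at this depth.

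Among bridging molecules, 9 of 10 genes could be tested, with 4 above and 5 below 0 and a median of -0.067, which ranged from -0.48 without tumor 102 to 0.15 without tumor 107 and was also above 0 without tumor 116 or 158. Thbs1, an extracellular matrix protein, was at 501 ± 167 CPM in older and 790 ± 144 CPM in younger tumors (SD, n = 3 each). Anxa1, an annexin that binds phosphatidylserine, reached 3396 CPM in tumor 167 and lay between 286 and 905 CPM elsewhere. For Ptx3, a pentraxin, edgeR gave a log2 fold change of -2.65 with a standard error of 0.99 (adjusted p = 0.502), which rested on 14.1 and 57.2 CPM in tumors 157 and 158, while tumor 167 had 2.14 CPM and older tumors 2.97 to 4.84 CPM. The complement chains C1qa, C1qb and C1qc, named after their values were seen, had log2 fold changes of 0.9998, 0.97 and 0.85 (adjusted p = 0.615, 0.615 and 0.726, edgeR). They were highest in tumor 107 and overlapped between groups, since tumor 102 had 18.5 CPM of C1qa and the younger tumors 20.6 to 25.3 CPM.

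Of the genes that carry engulfment signals to the cytoskeleton, all 16 were tested and 11 lay above 0, with a median of 0.064 that ranged from -0.0086 without tumor 107 to 0.18 without tumor 116. Dock2, the DOCK protein of blood cells, was at 41.6, 131 and 28.8 CPM in older tumors 102, 107 and 116 and at 14.4, 11.4 and 16.15 CPM in younger tumors 157, 158 and 167. It was higher in every older tumor, by 2.26 on the log2 scale in edgeR (standard error 0.57, adjusted p = 0.321). For its broadly expressed relative Dock1 the edgeR difference was -0.16 on the log2 scale (standard error 0.29, adjusted p = 0.938). The ratio of Dock2 to Dock1 counts, also chosen after the values had been seen, was 0.136 to 0.931 in older and 0.0565 to 0.0873 in younger tumors. As with Elmo1 and Elmo2, a gene whose groups lay apart was divided by a relative whose groups overlapped. The order of both ratios thus follows from the choice of genes.

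Vav1, a RAC activator of blood cells, was also higher in every older tumor (7.16 to 17.6 against 3.17 to 5.16 CPM), by 1.56 on the log2 scale in edgeR (standard error 0.46, adjusted p = 0.366). Rac2, the RAC GTPase of blood cells, is named in the plot of lists though it falls outside the rule for named genes. Its edgeR log2 difference was 1.77 (standard error 0.76, adjusted p = 0.581). The groups overlapped, with 75.5 CPM in tumor 107 and 6.51 to 12.5 CPM in the other tumors. Abca1, a lipid exporter related to the worm engulfment protein CED-7, had 730, 249 and 425 CPM in older tumors 102, 107 and 116 and 137.5, 269 and 86.5 CPM in younger tumors 157, 158 and 167. Its groups overlapped only between tumors 107 and 158, and edgeR put the older minus younger log2 difference at 1.51 (standard error 0.53, adjusted p = 0.460).

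Of the PTB adaptors and lipoprotein receptor family, to which GULP1 and LRP1 belong, 11 of 12 genes were tested, and 10 of them lay below 0 with a median log2 fold change of -0.40. The median shrank to -0.052 without younger tumor 158, and was -0.61 without tumor 102 and -0.66 without tumor 167. Vldlr, a lipoprotein receptor, was at 50.9 ± 2.65 CPM in older and 85.9 ± 14.7 CPM in younger tumors (SD, n = 3 each). It was lower in every older tumor, and edgeR gave a log2 difference of -0.76 (standard error 0.23, adjusted p = 0.366). The endocytic adaptor Dab2 ranged from 112 to 1756 CPM, both in younger tumors, and Lrp6, a WNT co-receptor, was at 599 CPM in tumor 158 and between 164 and 226 CPM in the others.

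Genes for the vitamin K dependent maturation of GAS6 and protein S, for shedding of MERTK and for signals below the TAM receptors numbered 6, all tested, with 2 above and 4 below 0 and a median of -0.19. It was -0.059 without tumor 158, -0.067 without tumor 102, -0.12 without tumor 157 and -0.30 without tumor 116. Adam10 and Adam17, proteases that shed surface receptors, had log2 fold changes of -0.28 and -0.10 (adjusted p = 0.875 and 0.960, edgeR).

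Genes of phagosome maturation and digestion, 12 of 12 tested, had a median of -0.023, which ranged from -0.096 without tumor 107 to 0.043 without tumor 158 and was also above 0 without tumor 116. Lamp1 and Lamp2, membrane proteins of the lysosome, had log2 fold changes of -0.38 and -0.24 with overlapping groups. Lipa, the acid lipase of the lysosome, stood apart from them. It was at 174.5, 129 and 141 CPM in older tumors 102, 107 and 116 and at 37.65, 46.8 and 27.8 CPM in younger tumors 157, 158 and 167, and higher in every older tumor. The edgeR log2 difference was 1.98 (standard error 0.28, adjusted p = 0.165), with the smallest p among the 84 genes. DESeq2 called Lipa (adjusted p = 1.01e-06), beside 2.47% of all genes with an adjusted p from that tool. As the lists were chosen with earlier results known, both p-values are a description.

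Of the genes that respond to engulfed cargo, 9 of 10 were tested, with a median of 0.075 that ranged from 0.050 without tumor 167 to 0.275 without tumor 107, with 0.25 without tumor 116 and 0.17 without tumor 158. The mitochondrial carrier Ucp2 and the lipid exporter Abcg1 had log2 fold changes of -0.55 and 0.85 with overlapping groups (adjusted p = 0.846 and 0.607, edgeR). The eat-me, find-me and do-not-eat-me genes were all tested, 7 above and 3 below 0, with a median of 0.093 that ranged from 0.0145 without tumor 167 to 0.45 without tumor 158, with 0.053 without tumor 116. Among them Calr, whose product is an eat-me signal read by LRP1, had a log2 fold change of -0.58 (adjusted p = 0.847, edgeR), and Cd24 one of 0.090 (adjusted p = 0.977, edgeR).

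**Figure D4:**
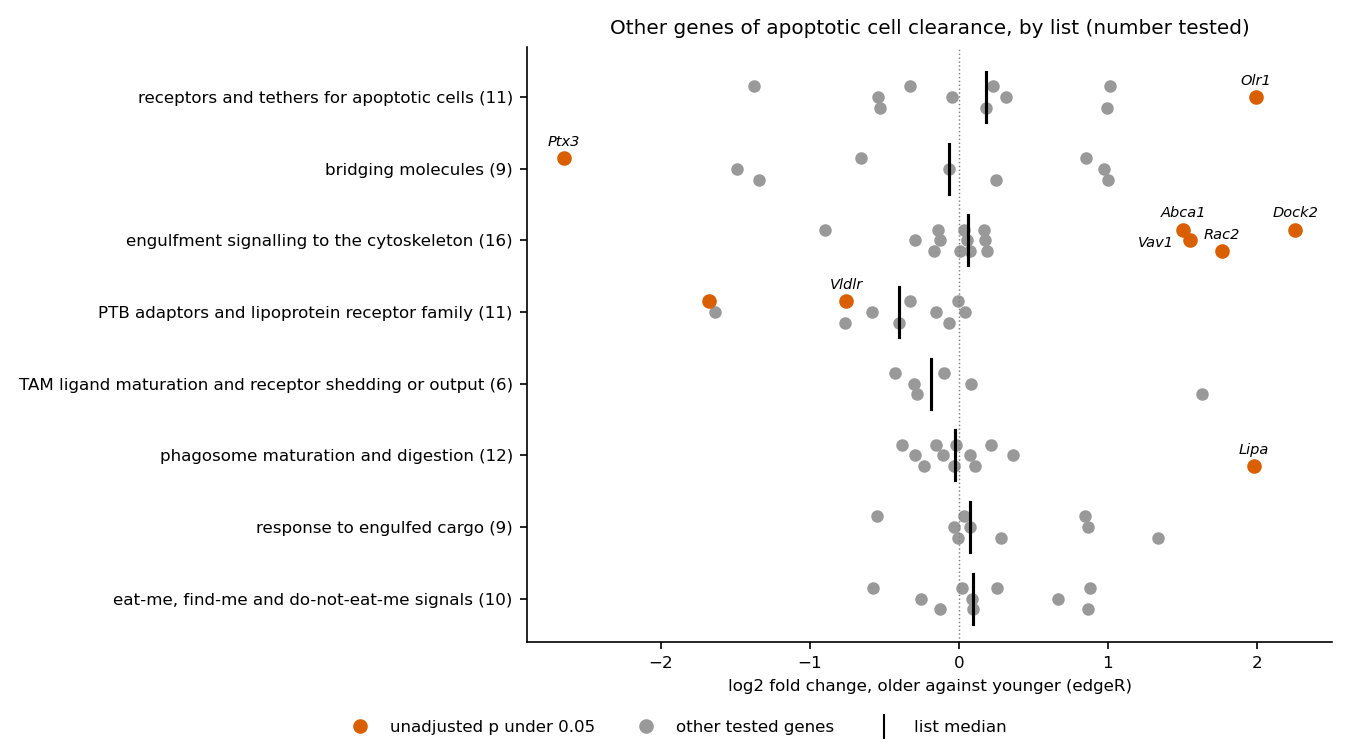
Log2 fold change between older and younger tumors (edgeR) of 84 tested genes of apoptotic cell clearance, grouped by role with the number tested; orange points have an unadjusted p under 0.05 and are named where described, grey points do not, and bars mark list medians. Most points lie near 0, with Dock2, Lipa and Olr1 to the right and Ptx3 to the left.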

How the data were processed

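Bulk RNA-seq was measured in 6 rat mammary tumors, 3 per age group. The authors trimmed reads with Trimmomatic 0.38, aligned them with STAR 2.7.9a, marked duplicates with Picard 2.18.12 and deposited raw read counts per gene from HTSeq 0.13.5 on build mRatBN7.2, per the labels and methods. The annotation, the strand setting and whether marked duplicates were counted are not given in the sources used here. The labels name polyA RNA, the protocol ribosomal RNA depletion.

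The deposited counts were fitted with edgeR 4.0.16 in R 4.3.3 (filterByExpr by age group, TMM, quasi-likelihood test, Benjamini-Hochberg adjustment over all rows, threshold 0.05), limma 3.58.1 and DESeq2 1.42.0. CPM used TMM-scaled library sizes, and log2 CPM a prior count of 2. Standard errors were calculated back from the F statistic. The fitting was tested on simulated data. Of 30562 rows, 14060 were tested. The 4367 rows without a name (2.17% to 3.64% of counts) were kept in the fits, and 0 columns were left unused. The study counts 3 rats per age group, so each tumor was taken as 1 rat, although the labels themselves name tumors only.

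The 10 genes and the lists were chosen with earlier results of these data known. Named genes are the 10, and of each list the 2 with the highest mean CPM and at most 3 with an unadjusted p under 0.05, plus the 5 genes most like Gulp1. A gene of these lists is counted in the list totals but not reported here. All 10 genes matched RefSeq symbols and promoters of GRCr8. Cd36, Krt19, Krt14, Cldn5 and Cd4 were not analysed here. Alternatives were DESeq2 size factors or library totals for scaling, DESeq2 and limma-voom as tests, other filters, leaving out the 10 most abundant rows, and leaving out each tumor.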

Additional observations from a re-analysis of the deposited data

How the results depend on the processing

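No paired analysis was possible because older and younger tumors are necessarily from separate rats and no tumor number occurs in both groups. The number of genes past the threshold, 0 with edgeR (1202 at an unadjusted p under 0.05), was 346 with DESeq2, 232 higher and 114 lower in older tumors, and 1 when all rows with at least 1 count were tested. It was 0 in the remaining alternatives, and ranged from 0 to 0 with 1 tumor left out. Among the 10 genes and the list genes named here, DESeq2 called Gulp1, Elmo1, Dock2 and Lipa, beside 2.47% of all genes with an adjusted p. The 10 genes and the lists were chosen with earlier results of these data known, so these calls are a description. Of the marker genes named here DESeq2 called Cd8a and Jchain (adjusted p = 0.0122 and 0.0224, DESeq2), both higher in older tumors. The cause of the difference between the tools was not tested.

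The fold changes of Gulp1, Elmo1, Tyro3, Gas6, Pros1, Mfge8, Stab1 and Lrp1 kept their sign under every alternative to the fit that gave a value (Mfge8 was filtered out at 10 counts in every tumor). With 1 tumor left out, Mertk ranged from -1.53 to 0.20 (0.04 without older tumor 116) and Axl from -0.079 (without older tumor 107) to 0.72. List medians that changed sign with 1 tumor left out ranged from -0.48 to 0.15 for bridging molecules (0.036 without tumor 116 and 0.0013 without tumor 158), from -0.071 to 0.72 for receptors and tethers (-0.037 without tumor 167), from -0.0086 to 0.18 for engulfment signalling, and from -0.096 to 0.043 for phagosome maturation (0.015 without tumor 116). The other list medians kept their sign and ranged from -0.66 to -0.052 for PTB adaptors and lipoprotein receptors, from -0.30 to -0.059 for TAM maturation and shedding, from 0.050 to 0.275 for the response to cargo and from 0.0145 to 0.45 for eat-me, find-me and do-not-eat-me signals. The bridging median was 0.25 at 10 counts in every tumor, where fewer genes are tested, and that of engulfment signalling -0.014 with library totals alone. Divided by macrophage marker sums, a scale chosen after seeing the data, the older minus younger difference of mean log2 levels turned to -0.98 for Axl, -0.13 for Elmo1, -0.70 for Lrp1, -0.23 for Mfge8 and -0.88 for Stab1. Leaving rows without a gene name out of library sizes and tests, also chosen after seeing the data, left 13139 genes, 0 past the threshold and 1129 at an unadjusted p under 0.05, raised CPM by 2.39% to 3.91% depending on the tumor, and moved the fold changes of the 10 genes by at most 0.013 on the log2 scale. Depth limits Mfge8, with 9 counts in tumor 167, and the receptors Timd4 and Havcr1.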
